A study of Homo sapiens with 12 samples.

Results

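The hnRNP genes HNRNPC, HNRNPH1, HNRNPH3, HNRNPK, HNRNPM, HNRNPR, HNRNPU, HNRNPUL1 and SYNCRIP were followed through every splicing event that the study listed under their symbols. These 9 genes held 65 of the 16199 events in a table of MISO values and 273 of the 143414 events in a table of rMATS values. All 9 were named in the rMATS table, and 8 had at least 1 MISO event with a value in every column, since HNRNPM had none in that table. The cells were HEK293T, an established human embryonic kidney line, carrying stable lentiviral hairpins, and poly(A) RNA was sequenced. The labels list 12 libraries: 1 with a scramble hairpin, 2 hairpins each against PRMT1, PRMT3, PRMT4 (also called CARM1), PRMT5 and PRMT7, and 1 hairpin against PRMT6. The PRMTs are protein arginine methyltransferases, and the study asked how they bear on RNA splicing. The authors deposited 1 column per target in each table, so each value is a single number without replicates, and neither an SD nor a test can be given. Read depth is unknown, the transcript level of each targeted enzyme was not analysed here, and splicing ratios do not show the marker genes of a cell line.

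The measure is PSI (percent spliced in), which for an event is the proportion of transcripts carrying the inclusive form, as a fraction between 0 and 1. MISO gave a PSI for scramble and for each of the 6 knockdowns. For rMATS the authors deposited a difference in PSI per target, given here as knockdown minus control after its sign was turned. An event is said to differ where the PSI differed from scramble by at least 0.1, which rests on size and on no test. All event coordinates refer to GRCh37.

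hnRNPs are abundant nuclear proteins that coat nascent RNA and steer the choice of splice sites, often as repressors and in competition with SR proteins. Several carry arginine-glycine rich stretches, which are classic substrates of arginine methylation. Many hnRNP genes also adjust their own output by splicing, through exons or retained introns that shift the reading frame or keep the RNA from being translated. hnRNP C binds uridine tracts, hnRNP H1 and H3 belong to the family that binds runs of guanosine, hnRNP K binds cytidine-rich RNA, and hnRNP M binds guanosine-uridine rich RNA. hnRNP U is a nuclear scaffold protein, HNRNPUL1 is its relative, and hnRNP R and SYNCRIP (hnRNP Q) are close paralogues of each other.

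Alternative parts of HNRNPH1, HNRNPH3, HNRNPUL1 and HNRNPU are shown first, so that their size and place in the reading frame can be seen. No part of HNRNPC or HNRNPR is printed. The printed parts come from GENCODE release 29 transcripts. That annotation is on GRCh38, so they were found by gene and by the lengths of the exon or intron and of its neighbours. The cassette exon of HNRNPH1 (chr5:179046270-179046408, minus strand) is exon 4 of HNRNPH1-201, has 139 bases and lies wholly in coding sequence. The cassette exon of HNRNPH3 (chr10:70097615-70097753, plus strand), exon 3 of HNRNPH3-201, is also 139 bases long and coding. Capitals mark in HNRNPH1 the first 47 bases, which its 92-base form leaves out, and in HNRNPH3 the bases that differ from HNRNPH1.
HNRNPH1 cassette exon: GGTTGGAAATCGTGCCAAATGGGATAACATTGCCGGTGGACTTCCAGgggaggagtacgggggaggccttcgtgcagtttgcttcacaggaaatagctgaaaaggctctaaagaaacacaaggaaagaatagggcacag
HNRNPH3 cassette exon: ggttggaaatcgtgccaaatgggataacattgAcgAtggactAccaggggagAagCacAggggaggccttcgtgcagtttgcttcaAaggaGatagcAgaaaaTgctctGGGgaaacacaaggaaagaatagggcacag
The exons of both paralogues were identical at 126 of 139 positions (90.6%), and 139 is no multiple of 3, so that skipping either shifts the reading frame. Runs of GGG or longer on the transcript strand numbered 4 in the HNRNPH1 exon and 5 in the HNRNPH3 exon. Of 1025 internal exons of the same length in protein-coding transcripts of that release, 9.07% held at least 4 and 3.41% at least 5, and 74.7% held at least 1.

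The retained intron of HNRNPH1 lies 1 exon upstream of that cassette exon (chr5:179048037-179048242, minus strand, 206 bases). Its sequence was read from a transcript annotated with it retained, HNRNPH1-223, and capitals mark its first and last 2 bases.
HNRNPH1 intron: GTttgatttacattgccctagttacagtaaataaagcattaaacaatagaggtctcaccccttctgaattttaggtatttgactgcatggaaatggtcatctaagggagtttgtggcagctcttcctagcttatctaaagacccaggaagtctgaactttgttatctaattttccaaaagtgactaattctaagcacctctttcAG
The exon of HNRNPUL1 (chr19:41811551-41811772, plus strand, exon 14 of HNRNPUL1-202) starts at 1 of 3 acceptors and has 222, 192 or 36 bases, each a multiple of 3. Capitals mark the last 36 bases, which are in all 3 forms.
HNRNPUL1 exon: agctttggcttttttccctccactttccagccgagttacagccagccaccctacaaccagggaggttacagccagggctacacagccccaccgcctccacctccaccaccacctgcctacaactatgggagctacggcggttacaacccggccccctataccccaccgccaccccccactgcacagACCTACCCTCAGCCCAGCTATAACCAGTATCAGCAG
The part of HNRNPU between its alternative 5' splice sites (chr1:245026919-245026975, minus strand, exon 1 of HNRNPU-226) has 57 bases, all coding, and is also a multiple of 3.
HNRNPU 5' splice site part: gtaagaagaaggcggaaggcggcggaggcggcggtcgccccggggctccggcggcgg

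Of the 65 MISO events, 53 were complete, with a value in each of the 7 columns. They were 25 cassette exons, 12 alternative 3' splice sites, 8 mutually exclusive exons, 5 retained introns and 3 alternative 5' splice sites. In scramble 28 of the 53 stood between 0.05 and 0.95 (52.8%, against 44.0% of all 10358 complete events), 15 at or above 0.95 and 10 at or below 0.05. In all, 13 of the 53 (24.5%) differed from scramble in at least 1 knockdown, against 21.5% of all complete events, so the share was near the background. They lay in HNRNPC (6), HNRNPH1 (2), HNRNPUL1 (2), HNRNPH3 (1), HNRNPR (1) and HNRNPU (1). Several overlap and share reads, so they are not 13 separate exons.

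PRMT3 and PRMT5 knockdown each had 8 differing hnRNP events, the most of the 6 targets. In PRMT3 knockdown this was 15.1%, beside 10.5% of all events, with 5 higher (background 4.37%) and 3 lower (6.12%). In PRMT5 knockdown it was 15.1%, beside 8.27% of all events, with 7 higher (4.57%) and 1 lower (3.71%). PRMT7 knockdown had 4, all higher (7.55%, background 6.34%). PRMT1 knockdown had 2 (3.77%, background 7.40%), PRMT4 knockdown had 2 (3.77%, background 7.47%) and PRMT6 knockdown had 1 (1.89%, background 6.84%). These 6 comparisons share the scramble library.

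When each knockdown was instead compared with the average of the other 5, which does not use scramble, PRMT3 again had 8 differing hnRNP events (background 7.01%). PRMT6 had 5 (9.43%, background 4.49%), PRMT5 had 3 (5.66%, background 5.99%) and PRMT1 had 2 (3.77%, background 3.68%). PRMT7 had 2 (3.77%, background 3.01%) and PRMT4 had 1 (1.89%, background 3.86%). In PRMT3 knockdown 6 events were counted by both references. By the second reference 3 were higher and 5 lower, since the HNRNPC 260-base event (-0.148) and the HNRNPH1 139-base exon (-0.102) entered and 2 HNRNPC pairs of exons left. Over the 6 targets, 14 of the 25 differences from scramble were under 0.1 by the second reference.

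In the authors' deposited table of rMATS differences, 127 of the 273 hnRNP events had a value for all 6 targets. Of these, 6 (4.72%) reached 0.1 in at least 1 target, against 25.9% of all 60623 complete events in the authors' deposited table. The authors' deposited table had 5 such events in PRMT3 knockdown (background 15.3%) and 1 each in PRMT5 (background 13.8%), PRMT6 (background 15.1%) and PRMT7 (background 12.4%). It had 0 in PRMT1 (background 12.5%) and 0 in PRMT4 knockdown (background 13.8%). The median absolute difference of the 127 events in the authors' deposited table was 0.002 to 0.004 per target, against 0.014 to 0.017 for all events. Most hnRNP events of the authors' deposited table were therefore close to 0 in every knockdown.

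**Figure D1:**
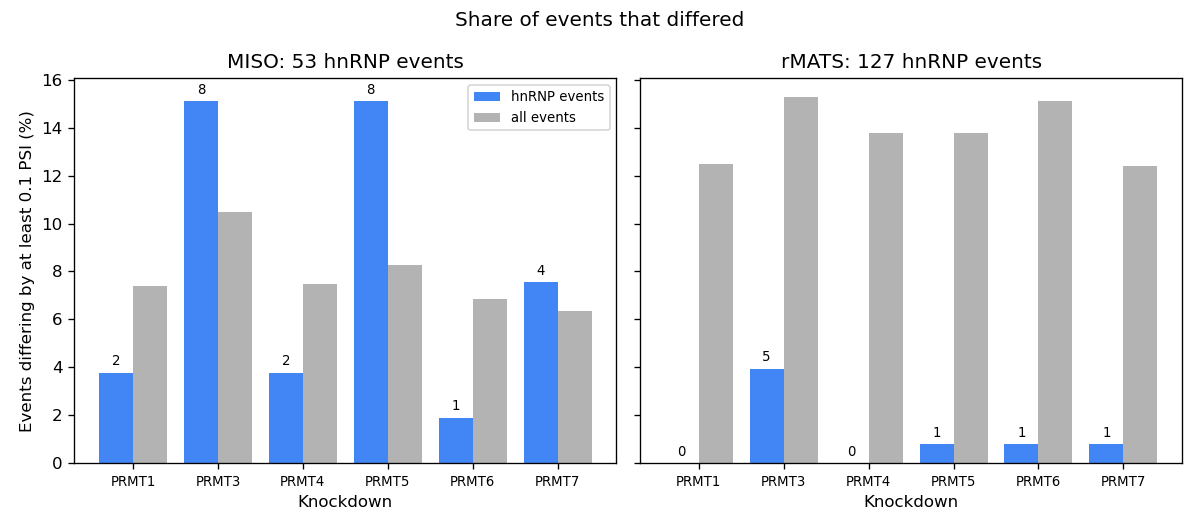
Share of complete events (%) whose PSI differed by at least 0.1, for each knockdown, by MISO against scramble (left) and in the authors' rMATS values (right). Blue bars are the hnRNP events with their number above, grey bars all events; by MISO the blue bar is the taller one in PRMT3, PRMT5 and PRMT7, and in the rMATS values the grey bar is taller in all 6.

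**Figure D2:**
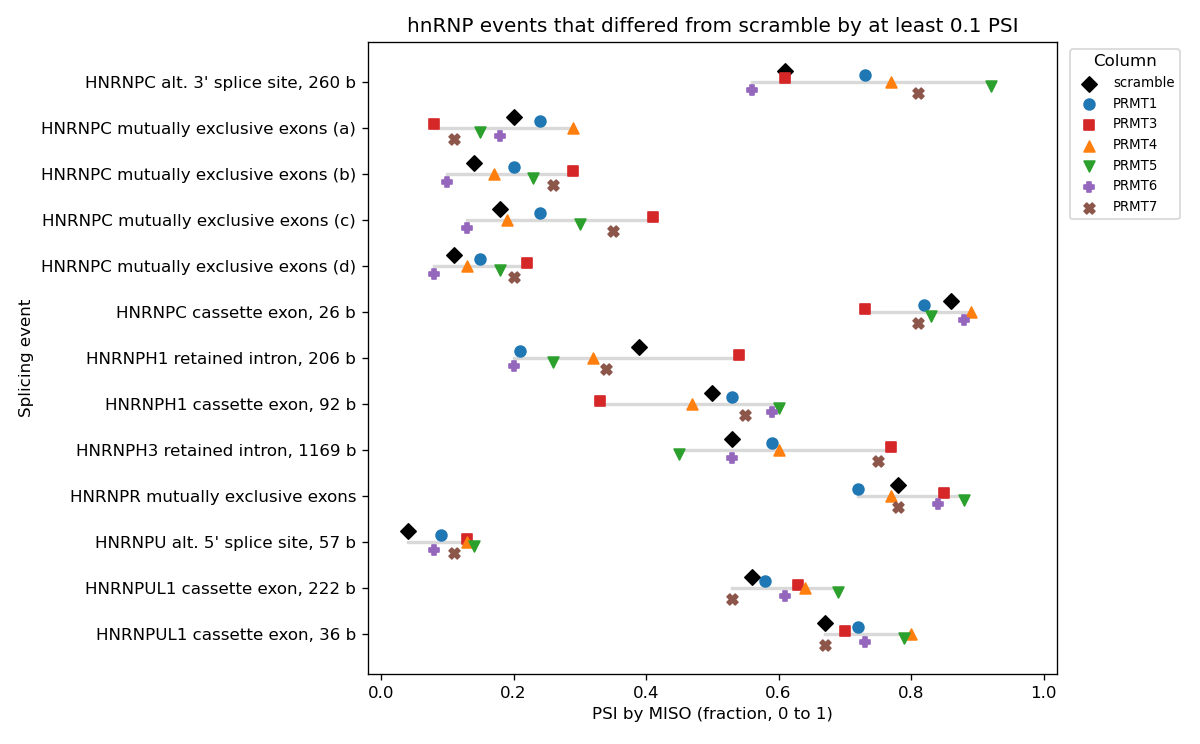
PSI (x axis, fraction) of the 13 hnRNP events that differed from scramble by MISO in at least 1 knockdown, with a marker for each of the 7 columns and a grey line over their range (b: bases in the alternative part). The widest ranges are those of the HNRNPC alternative 3' splice site (0.36), the HNRNPH1 intron (0.34) and the HNRNPH3 intron (0.32).

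HNRNPH1 is the main source of hnRNP H, which enhances or represses exons depending on where it binds. Its 206-base intron was retained at a PSI of 0.39 in scramble, 0.54 in PRMT3, 0.34 in PRMT7, 0.32 in PRMT4, 0.26 in PRMT5, 0.21 in PRMT1 and 0.20 in PRMT6 knockdown. PRMT3 was thus the only knockdown above scramble, by 0.15, and PRMT1 and PRMT6 were the lowest, at differences of -0.18 and -0.19. The authors' deposited table placed the same intron on the same side in each target, at 0.047 in PRMT3, -0.011 in PRMT7, -0.032 in PRMT4, -0.069 in PRMT5, -0.079 in PRMT1 and -0.081 in PRMT6. The differences in the authors' deposited table were smaller, none reached 0.1, and both tables come from the same libraries.

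The cassette exon of HNRNPH1 stood in the reverse order for most knockdowns. Its 139-base form had a PSI of 0.91 in scramble, 0.84 in PRMT3, 0.92 in PRMT4, 0.93 in PRMT7, 0.95 in PRMT1 and PRMT6 and 0.96 in PRMT5. No difference reached 0.1, and PRMT3 was the only knockdown below scramble. The 92-base form, measured by MISO as a separate event against the same skipped form, stood at 0.50 in scramble, 0.33 in PRMT3, 0.47 in PRMT4, 0.53 in PRMT1, 0.55 in PRMT7, 0.59 in PRMT6 and 0.60 in PRMT5. That is -0.17 in PRMT3 and 0.10 in PRMT5, both counted as differing. The authors' deposited table gave -0.052 in PRMT3, 0.003 in PRMT4, 0.022 in PRMT7, 0.089 in PRMT5, 0.090 in PRMT1 and 0.096 in PRMT6 for the 92-base form. For the 139-base form the authors' deposited table gave -0.034 in PRMT3, -0.002 in PRMT4, 0.010 in PRMT7, 0.042 in PRMT1 and PRMT5 and 0.048 in PRMT6. PRMT3 lay below the control and PRMT1, PRMT5, PRMT6 and PRMT7 above it for both forms in both tables. An event on the choice between both acceptors ran from 0.97 to 0.99 over the 7 columns. It was thus nearly always in its inclusive state, and the 92-base form was rare beside the 139-base form. Both differences counted for this exon were in the event of that rare form.

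**Figure D3:**
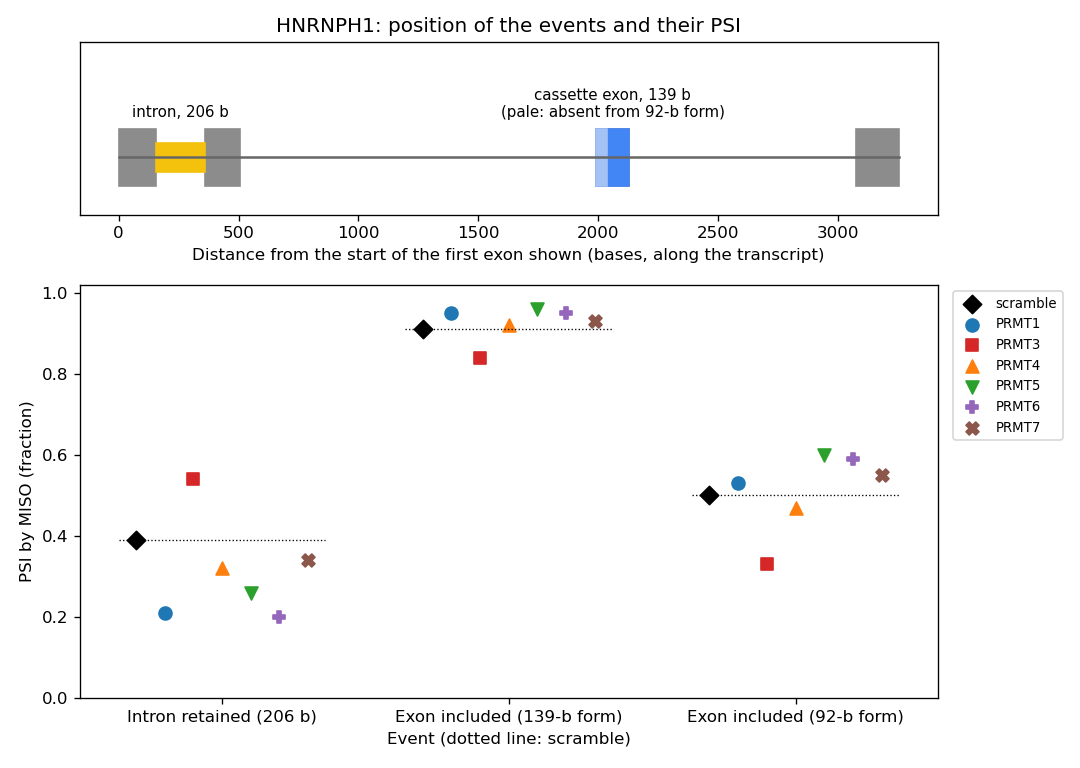
Top: exons of HNRNPH1 (grey boxes), the 206-base intron (yellow) and the 139-base cassette exon (blue, with the 47 bases absent from the 92-base form in pale blue), by distance along the transcript in bases. Bottom: PSI by MISO (fraction) of the intron and of both forms of the exon in the 7 columns; PRMT3 is the highest point for the intron (0.54) and the lowest for both exon forms (0.84 and 0.33).

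Farther downstream the authors' deposited table listed another HNRNPH1 intron that MISO did not (chr5:179043220-179044021, 802 bases). Its difference was 0.139 in PRMT3, 0.021 in PRMT4, -0.002 in PRMT7, -0.099 in PRMT1, -0.137 in PRMT5 and -0.287 in PRMT6 in the authors' deposited table. PRMT3 and PRMT6 were again at the ends of the order. The 802-base interval contains an exon of 90 bases (chr5:179043870-179043959), so reads of that exon also fall within the event. Their part in its value was not tested. A shorter intron nested in the 802-base interval (chr5:179043220-179043869, 650 bases) had a high PSI by MISO, with 0.96 in scramble and a knockdown range of 0.92 to 0.97. The upstream part of that event (chr5:179043870-179044111) itself holds an intron of 92 bases (chr5:179043960-179044051), listed as an event of its own. By its coordinates the event thus compares forms that keep the 92-base intron, and its PSI is no share of all HNRNPH1 transcripts. In the authors' deposited table the 650-base intron ran from -0.073 in PRMT6 to -0.003 in PRMT3. Far upstream, an exon of 93 bases (chr5:179061066-179061158) reached 0.116 in PRMT7 knockdown and -0.087 in PRMT6 in the authors' deposited table. Between other neighbours the same exon was listed at -0.500 in PRMT4 and had no value for any other target in the authors' deposited table. Also with values missing, a 138-base exon (chr5:179050979-179051116) was listed at 0.274 in PRMT3 and 0.255 in PRMT7, and at 0.028 in PRMT5 and 0.058 in PRMT6, in the authors' deposited table. The other 14 complete MISO events of HNRNPH1 moved by at most 0.09. HNRNPH1 has a close paralogue, HNRNPH2, and how reads that fit both were treated is not given in the sources used here.

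HNRNPH3 is a smaller member of the hnRNP H family. A retained-intron event over chr10:70097091-70098259 (1169 bases) had a PSI of 0.53 in scramble, 0.77 in PRMT3, 0.75 in PRMT7, 0.60 in PRMT4, 0.59 in PRMT1, 0.53 in PRMT6 and 0.45 in PRMT5 knockdown. PRMT3 and PRMT7 stood apart from the rest, at 0.24 and 0.22 above scramble, and PRMT5 was the lowest. The authors' deposited table gave 0.093 in PRMT3, 0.037 in PRMT7, -0.002 in PRMT4, -0.040 in PRMT1, -0.064 in PRMT5 and -0.065 in PRMT6. PRMT3 and PRMT7 were the only targets above 0 in the authors' deposited table. This interval contains the 139-base cassette exon printed above, whose own PSI was 0.94 in scramble and, by knockdown, 0.95 to 0.97, so reads of that exon also fall within the event; their part in its PSI was not tested. The rMATS value of the cassette exon was -0.018 to 0.020 over the 6 targets in the authors' deposited table. The event of HNRNPH3 with the largest difference there apart from the intron was a 45-base alternative 5' splice site (chr10:70098400-70098444), at 0.073 in PRMT3 and 0.066 in PRMT4 in the authors' deposited table.

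HNRNPC, which guards against the use of cryptic exons by binding uridine tracts, had the most events in the MISO table and the widest range there. An alternative 3' splice site with an alternative part of 260 bases (chr14:21679466-21679725, minus strand) stood at 0.61 in scramble, 0.92 in PRMT5, 0.81 in PRMT7, 0.77 in PRMT4, 0.73 in PRMT1, 0.61 in PRMT3 and 0.56 in PRMT6. PRMT5 was 0.31 above scramble, the largest difference of any complete hnRNP event by MISO. Those 260 bases are made up of a 161-base exon and the 99-base intron after it, and both were measured as events of their own. The cassette event of the 161-base exon stood at 1 in all 7 columns, and the 99-base intron had a PSI of 0.05 in scramble and, by knockdown, 0.03 to 0.07. In the authors' deposited table the cassette event was at 0.001 or less in size in every target and the intron between -0.010 and 0.007. No event of the authors' deposited table had the splice junctions of the 260-base event. The large PSI difference in PRMT5 thus had no counterpart in either overlapping event. By its coordinates, the 260-base event compares transcripts that keep this intron with transcripts that skip this exon. By the PSI of the overlapping events, both forms were a small share of HNRNPC transcripts.

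At the other end of HNRNPC, near its 5' end, a 26-base exon (chr14:21731470-21731495) was included at 0.86 in scramble, 0.89 in PRMT4, 0.88 in PRMT6, 0.83 in PRMT5, 0.82 in PRMT1, 0.81 in PRMT7 and 0.73 in PRMT3. PRMT3 was the lowest, 0.13 below scramble, and the other 5 were within 0.05 of it. The authors' deposited table also had its lowest value in PRMT3, at -0.093, beside -0.067 in PRMT4, -0.036 in PRMT1, -0.034 in PRMT7, -0.030 in PRMT5 and 0.010 in PRMT6. Just upstream of that exon, an intron of 330 bases (chr14:21731496-21731825) stood at 0.192 in PRMT3 in the authors' deposited table, with -0.005 in PRMT5 to 0.073 in PRMT4 in the others. A 272-base form that starts farther upstream in that intron stood at -0.126 in PRMT3, and a 46-base exon before it (chr14:21736782-21736827) at -0.111, both in the authors' deposited table. MISO gave the 272-base form only 0.04 in scramble and 0.02 in PRMT3. The exons here overlap, so these values are not separate measurements. Farther downstream, an HNRNPC alternative 5' splice site with a part of 39 bases (chr14:21699117-21699155) stood at -0.1 in PRMT3 in the authors' deposited table. Its other values there were -0.079 in PRMT4, -0.043 in PRMT7, -0.031 in PRMT1, -0.023 in PRMT5 and 0.031 in PRMT6.

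Downstream of the 26-base exon, 4 pairs of rarely used exons measured as mutually exclusive differed from scramble, and 3 of the pairs share an exon of 168 bases (chr14:21730760-21730927). Against an 88-base exon (chr14:21704532-21704619) the PSI was 0.18 in scramble, 0.41 in PRMT3, 0.35 in PRMT7, 0.30 in PRMT5, 0.24 in PRMT1, 0.19 in PRMT4 and 0.13 in PRMT6. Against a 63-base exon it was 0.14 in scramble, 0.29 in PRMT3 and 0.26 in PRMT7, and against a 47-base exon 0.11, 0.22 and 0.20. The order of the knockdowns was the same in these 3 events, which share reads of the 168-base exon, with PRMT3 highest and PRMT6 lowest. The sources used here do not say which exon of a pair the PSI counts. The pair of the 47-base and the 88-base exon stood at 0.20 in scramble and was lowest in PRMT3, at 0.08. As cassette exons these parts were rare in every column: the 168-base exon had a PSI of 0.02 in scramble, 0.05 in PRMT3 and PRMT7 and 0.02 to 0.04 in the others, and the 88-base exon 0.03 in scramble, 0.01 in PRMT3 and 0.02 to 0.04 in the others. In the authors' deposited table the 168-base and the 88-base exon between the same neighbours were within 0.004 of 0. Between other neighbours, with values missing, the 168-base exon was listed at 0.30 in PRMT4, 0.345 in PRMT5 and 0.279 in PRMT7 and the 88-base exon at -0.170 in PRMT3 and -0.103 in PRMT7 in the authors' deposited table. By the cassette PSI, the ratios between these exons concern a small share of HNRNPC transcripts.

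**Figure D4:**
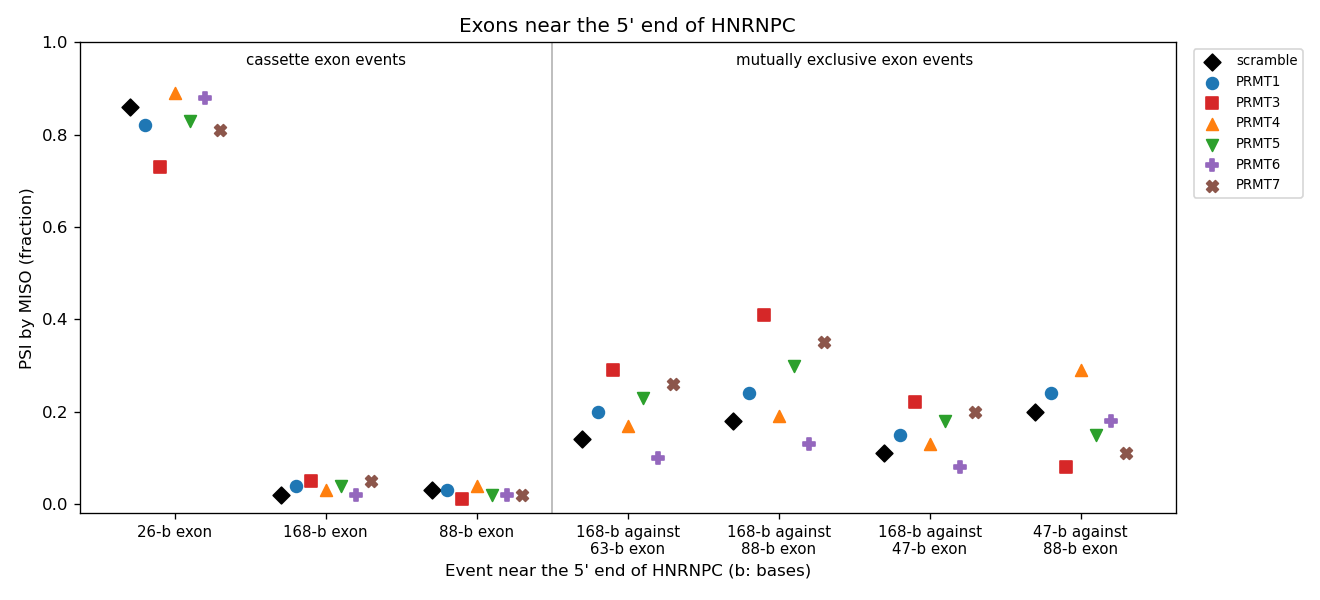
PSI by MISO (fraction) of exons near the 5' end of HNRNPC in the 7 columns, as cassette exons (left of the grey line) and as pairs of mutually exclusive exons (right). The 168-base and 88-base exons lie at or below 0.05 as cassette exons, while pairs with the 168-base exon are highest in PRMT3 (0.22 to 0.41).

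HNRNPUL1, a relative of hnRNP U that takes part in DNA end processing and RNA transport, had higher inclusion of its 3-acceptor exon in several knockdowns. The 36-base form stood at 0.67 in scramble, 0.80 in PRMT4, 0.79 in PRMT5, 0.73 in PRMT6, 0.72 in PRMT1, 0.70 in PRMT3 and 0.67 in PRMT7. PRMT4 and PRMT5 differed from scramble, by 0.13 and 0.12, but from the other 5 knockdowns by 0.078 and 0.066. The 222-base form stood at 0.56 in scramble, 0.69 in PRMT5, 0.64 in PRMT4, 0.63 in PRMT3, 0.61 in PRMT6, 0.58 in PRMT1 and 0.53 in PRMT7, so that PRMT5 alone differed (0.092 against the other 5). The 192-base form, the most used against skipping, ran from 0.88 in PRMT7 to 0.95 in PRMT5, with 0.90 in scramble. An event on the choice between the acceptors of the 192-base and the 36-base form stood at 0.97 in scramble and 0.98 to 0.99 by knockdown. It was thus nearly always in its inclusive state, and the 36-base form was rare beside the 192-base form. The authors' deposited table gave 0.070 in PRMT4 and 0.025 in PRMT5 for the 36-base form, but 0.029 and -0.002 for the 222-base form. PRMT6 went the other way in the authors' deposited table, at -0.026 and -0.037, while MISO placed it 0.06 and 0.05 above scramble. For the 36-base form the authors' deposited table gave 0.028 in PRMT7, 0.022 in PRMT1 and 0.021 in PRMT3, so PRMT5 did not stand out from these. The choice between the first 2 acceptors, 30 bases apart, was at -0.033 in PRMT1 to 0.005 in PRMT5 in the authors' deposited table. The difference of the 222-base form in PRMT5 was thus absent from the authors' deposited table.

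HNRNPU, the nuclear scaffold protein, had 1 MISO event, the 57-base part printed above. Its PSI was 0.04 in scramble, 0.08 in PRMT6, 0.09 in PRMT1, 0.11 in PRMT7, 0.13 in PRMT3 and PRMT4 and 0.14 in PRMT5. All 6 knockdowns lay above scramble, and PRMT5 reached the threshold at 0.10. Against the other 5 knockdowns PRMT5 was only 0.032 higher. With a single scramble library, a low value there and a rise in the knockdowns cannot be told apart. The authors' deposited table held no event with these junctions. Its 15 cassette exon events of HNRNPU, of which 6 were complete and some share an exon, were within 0.003 of 0.

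HNRNPR and SYNCRIP, the paralogues with 3 central RNA recognition motifs, differed little from scramble. In HNRNPR a pair of mutually exclusive exons stood at 0.78 in scramble, 0.88 in PRMT5, 0.85 in PRMT3, 0.84 in PRMT6, 0.78 in PRMT7, 0.77 in PRMT4 and 0.72 in PRMT1. PRMT5 differed by 0.10 from scramble and by 0.088 from the other 5 knockdowns. As cassette exons these parts were nearly always included, the 177-base exon at 0.98 to 0.99 in 1 event and 0.90 to 0.95 in another, and the 114-base exon at 0.93 to 0.98. An HNRNPR exon of 166 bases (chr1:23667345-23667510) stood at 0.85 in scramble and at 0.80 in PRMT1, PRMT4 and PRMT7, and the authors' deposited table gave -0.084 in PRMT1. Its form with 3 more bases had the largest complete HNRNPR value of the authors' deposited table, -0.089 in PRMT1. SYNCRIP had 3 complete MISO events, which moved by at most 0.04. The widest, a pair of 3' splice sites 3 bases apart, had a PSI of 0.86 in scramble and, by knockdown, 0.82 to 0.87. The 23 SYNCRIP events of the authors' deposited table lay within 0.056 of 0, and that value came from an exon listed for PRMT7 alone.

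HNRNPK, a poly(C)-binding protein, had 1 complete MISO event, an alternative 3' splice site 60 bases apart whose row also carries the symbol of the microRNA gene MIR7-1. It stood at 0.48 in scramble, PRMT6 and PRMT7, 0.47 in PRMT1, 0.45 in PRMT4 and 0.43 in PRMT3 and PRMT5. The largest HNRNPK value in the authors' deposited table was -0.050 in PRMT1, for a 72-base exon (chr9:86588817-86588888). HNRNPM, a repressor and activator of exons in many tissues, was measured only in the authors' deposited table, in 34 events of which 20 were complete. The largest complete value for HNRNPM in the authors' deposited table was 0.066 in PRMT5, for an intron of 117 bases (chr19:8530247-8530363). An HNRNPM exon of 102 bases (chr19:8536210-8536311) was listed at 1 in PRMT7 in the authors' deposited table and had no value for any other target.

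The largest hnRNP values of the authors' deposited table were in events with a value missing. Of 146 such hnRNP events, 14 reached 0.1 in at least 1 target, a smaller share than the 18.1% of all such events. Of the 127 complete hnRNP events 6 did, against 25.9% of all complete events. A 115-base exon of HNRNPC (chr14:21699117-21699231) was listed at 0.914 in PRMT1, 0.324 in PRMT5, 0.106 in PRMT7, 0.072 in PRMT3 and 0.063 in PRMT4 in the authors' deposited table. The same exon measured from another upstream exon was listed at -0.235 in PRMT1, -0.457 in PRMT4 and -0.500 in PRMT3 and PRMT5 in the authors' deposited table. The sign thus depended on the neighbouring exon. A 136-base exon of HNRNPR (chr1:23648021-23648156) was listed at -0.217 in PRMT5, -0.193 in PRMT6, -0.064 in PRMT4 and -0.053 in PRMT7 in the authors' deposited table. Values of 0.500 or 1 in size can come from very few reads, and the read numbers are unknown. Of the 12 MISO events with a value missing, a pair of HNRNPR 3' splice sites 3 bases apart stood at 0.56 in scramble and 0.40 in PRMT6, and an HNRNPC pair of mutually exclusive exons at 0.33 in scramble and 0.13 in PRMT3.

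Of the complete MISO events, 37 had a partner with the same splice junctions in the authors' deposited table. Over the 6 targets, 12 MISO differences of at least 0.1 had an rMATS value, and 11 of the 12 went the same way in the authors' deposited table. None of the 12 reached 0.1 there, and the largest size among all matched hnRNP values in the authors' deposited table was 0.126, against 0.24 by MISO. The direction of the rMATS differences was read from the MISO differences over all events, and both tables come from the same libraries, so this count is no independent check.

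**Figure D5:**
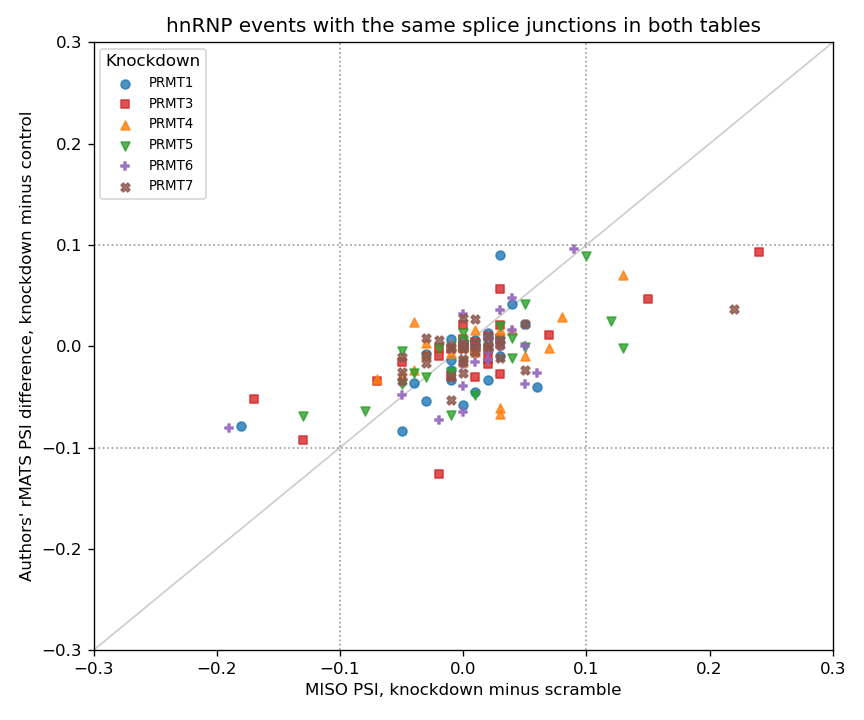
PSI difference by MISO (knockdown minus scramble, x axis) against the authors' rMATS difference (knockdown minus control, y axis) for the 37 complete hnRNP events found in both tables, with a point per event and knockdown; dotted lines mark 0.1 in either direction and the grey line equality. No point passes 0.1 in both tables.

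Other hnRNP and related RNA-binding genes (hnRNP A, D, F and L and the PTBP and PCBP genes among them) had 39 complete MISO events in 15 genes, with 1 to 3 differing per knockdown. In PRMT3 and PRMT5 knockdown, where the 9 genes had 8 of 53 each, these genes had 3 of 39 each (7.69%). This gap was seen against scramble only. Against the mean of the other 5 knockdowns these genes had 15.4% in PRMT3 and 7.69% in PRMT5, beside 15.1% and 5.66% in the 9 genes. In the authors' deposited table these genes had 5.23% in PRMT3 and 2.61% in PRMT5, beside 3.94% and 0.787% in the 9 genes. The SR protein genes, known as counterparts of hnRNPs, had 44 complete MISO events in 11 genes. Of these, 9 differed from scramble in PRMT3 (20.5%), 7 in PRMT7 (15.9%) and 4 in PRMT5 knockdown (9.09%). The mean absolute difference by MISO was 0.0409 for the hnRNP events in PRMT3 knockdown and 0.0408 in PRMT5, against 0.0366 and 0.0313 over all events. It was 0.0325 against 0.0283 in PRMT7, and below that of all events in PRMT1 (0.0266 against 0.0301), PRMT4 (0.0285 against 0.0311) and PRMT6 (0.0257 against 0.0294). None of these differences between gene groups was tested.

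The 260-base event of HNRNPC had the widest range over the 7 columns, and its pattern was compared with 931 events of other genes that spanned at least 0.2. With 1 event taken per gene, the most alike were an exon of DAXX, a histone chaperone (r = 0.960), an exon of VEGFA, an angiogenic growth factor (r = 0.909), and an exon in a row named for SENP3-EIF4A1, EIF4A1 and SNORA67 (r = 0.888). Of the 5 events with r of at least 0.9, 4 were events of DAXX, so they do not stand for separate genes. The DAXX event with the highest r stood at 0.45 in scramble, 0.71 in PRMT5, 0.64 in PRMT7 and 0.40 in PRMT6. These are Pearson correlations over 7 columns that share libraries, and they were picked as the highest of 931.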

How the data were processed

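Stranded poly(A) libraries were sequenced as paired reads, and the submitters' processing notes name cutadapt 1.18, HISAT and GRCh37. Annotation, MISO and rMATS versions and settings, and how 2 hairpins became 1 column, are not stated there. The authors deposited MISO PSI values as a fraction. The rMATS differences, a score between -1 and 1 whose sign is not stated, were also deposited by the authors.

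Events were taken where the symbol column held a member. The members and gene lists were chosen with earlier results of these data known. Shared splice junctions paired 7131 to 7470 events of both tables per target. Over these the deposited rMATS value correlated with knockdown minus scramble by MISO at -0.589 to -0.347, so the sign was reversed, after which the tables differed by 0.0542 to 0.0621 (root mean square). Named are all hnRNP MISO events that differed, the widest event of a gene without one, their rMATS partners and the largest other rMATS value per gene. Further events given beside these lie outside that rule and were chosen after their values were seen. With 1 column per target no test was run. Calls were checked on differences planted in the scramble values without noise, and matching on made-up coordinate pairs. Both test the code alone and not the error of a call. Other thresholds, references, and rules on mean PSI, missing values and rows with several symbols were tried. A single emptied MISO line is not analysed here, and 1 gene was left out of the list of other hnRNP and related genes and is not reported here. Python 3.11.15, numpy 2.4.6, pandas 2.3.3 and matplotlib 3.10.9 were used.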

Additional observations from a re-analysis of the deposited data

How the results depend on the processing

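No paired analysis was possible because the tables hold 1 column per target, and for the same reason no hairpin could be left out. At a threshold of 0.2 the MISO counts of differing hnRNP events were 2 for PRMT3 and PRMT7, 1 for PRMT5 and 0 for PRMT1, PRMT4 and PRMT6, and the rMATS counts 0 for PRMT3, PRMT5 and PRMT7 and 1 for PRMT6. With the mean of the other 5 knockdowns as reference the MISO counts became 5 for PRMT6, 3 for PRMT5, 2 for PRMT7 and 1 for PRMT4, and the rMATS counts 0 in PRMT5, 2 in PRMT6 and 0 in PRMT7. With events that had a value for the target, complete or not, the MISO count became 2 in PRMT6, and the rMATS counts 9 for PRMT3, 7 for PRMT5 and PRMT7, 5 for PRMT4, 4 for PRMT1 and 2 for PRMT6, since more events enter. The filter on mean PSI and the restriction to rows with 1 symbol kept every count within 1.5 times. Of the 25 MISO differences that reached 0.1, 14 were under 0.1 against the other knockdowns, from -0.062 for the HNRNPH1 intron in PRMT5 to 0.098 for an HNRNPC pair in PRMT3, and 1 of these changed sign (the HNRNPC 260-base event in PRMT1, -0.004), and of the 12 with an rMATS value 1 did (the HNRNPUL1 222-base form in PRMT5, -0.002). The cause was not tested. Unknown read depth limits every value.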
